A study of Mus musculus with 4 samples.

Results

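Leukocytes, the white blood cells that patrol the mammary gland alongside its epithelium and stroma, were examined in droplet-based 3′ RNA libraries made from mammary epithelial cell preparations. The cells were chosen by their measured counts of a few genes: a barcode was taken as a leukocyte when it had at least 500 UMIs, at least 3 UMIs summed over Ptprc, Coro1a, Laptm5, Cd52, Cd3d, Cd79a and Tyrobp, and fewer UMIs than that sum over Krt5, Krt8, Krt18 and Epcam. UMIs, unique molecular identifiers, count captured RNA molecules. The rule found 67 of 18223 barcodes (0.368%). The 4 libraries came from 1 FVB mouse each, all homozygous for floxed Tfap2c (Tfap2cfl/fl) and carrying Krt5-CreERT2, a Cre recombinase made under the Krt5 promoter and activated by 4-hydroxytamoxifen (4OHT). From postnatal week 4, the injections were corn oil in 2 mice and 4OHT in the other 2, and the fourth mammary glands were taken at week 9. The sample characteristics give 5 days of daily injection and the treatment protocol gives a week. The series addressed the effect of conditional Tfap2c loss on mammary stem cells. Krt5 is a gene of basal epithelium, so the Cre line is not directed at leukocytes. Tfap2c itself had 1 UMI over all 67 cells, and was found in 37.5% of other barcodes.

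Leukocytes share a set of genes for migration and signalling, and their lineages differ in the receptor each carries. T cells read antigen through the T cell receptor, whose chains (Trac, Trbc1, Trbc2) signal through Cd3d, Cd3e, Cd3g and Cd247. B cells use membrane immunoglobulin (Ighm, Igkc and the lambda genes) with Cd79a and Cd79b, and many myeloid cells and NK cells signal through the adaptor Tyrobp. All of these adaptors carry the same kind of tyrosine motif, the ITAM, which is phosphorylated by Src-family kinases such as Lck and Lyn and read by Zap70 or Syk. The preparation was labelled as epithelial cells, and leukocytes were a small part of its barcodes.

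The class of each cell came from which of Cd3d, Cd79a and Tyrobp had the most UMIs. The T class held 32 cells, the B class 14, the myeloid class 9, and 1 cell was tied between Cd3d and Tyrobp. Another 11 cells had no UMI of the 3 genes. Because expressed genes chose the cells and the classes, the levels of every gene below are descriptions of the chosen cells, and no test was made of leukocytes against other barcodes or of a class against another. In GRCm38 with GENCODE M21, Cd3d (ENSMUSG00000032094) spans 44981786 to 44987339 of chromosome 9. Cd79a (ENSMUSG00000003379) spans 24897381 to 24902197 of chromosome 7, and Tyrobp (ENSMUSG00000030579) spans 30413760 to 30417585 of the same chromosome. Laptm5 (ENSMUSG00000028581), a gene for a lysosomal membrane protein of blood cells, spans 130913125 to 130936141 of chromosome 4. All 4 are protein-coding genes of the plus strand.

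The stretch just upstream of the start site is shown for 1 T cell gene, 1 B cell gene and 1 gene shared by leukocytes, since all 3 are in the rule that chose the cells and Cd3d and Cd79a also set classes. RefSeq promoter windows on GRCm38.p6 were found for 5 of the 7 rule genes. The 250 bases before the start were searched for GGAAGT and its reverse complement ACTTCC, a core bound by ETS-family factors, a family to which the leukocyte factor Spi1 (PU.1) belongs. It was present in 4 of the 5, and in 19.7% of all 32851 windows of that length. Capitals mark the match. The windows are chr9:44981536-44981785 for Cd3d, chr7:24897247-24897496 for Cd79a and chr4:130913066-130913315 for Laptm5, all on the plus strand. The RefSeq start used for Cd79a and for Laptm5 lies inside the GENCODE gene, so part of each window is annotated as transcribed there. The marked match of both genes lies in that part.
Cd3d: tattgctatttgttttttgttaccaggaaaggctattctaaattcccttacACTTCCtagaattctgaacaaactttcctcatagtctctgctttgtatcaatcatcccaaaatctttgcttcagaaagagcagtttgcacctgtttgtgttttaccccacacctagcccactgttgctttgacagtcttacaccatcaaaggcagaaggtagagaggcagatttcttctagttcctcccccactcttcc
Cd79a: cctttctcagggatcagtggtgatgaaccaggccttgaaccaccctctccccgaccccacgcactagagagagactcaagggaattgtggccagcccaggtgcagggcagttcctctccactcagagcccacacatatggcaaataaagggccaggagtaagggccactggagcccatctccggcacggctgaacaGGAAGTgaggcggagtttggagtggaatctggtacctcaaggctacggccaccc
Laptm5: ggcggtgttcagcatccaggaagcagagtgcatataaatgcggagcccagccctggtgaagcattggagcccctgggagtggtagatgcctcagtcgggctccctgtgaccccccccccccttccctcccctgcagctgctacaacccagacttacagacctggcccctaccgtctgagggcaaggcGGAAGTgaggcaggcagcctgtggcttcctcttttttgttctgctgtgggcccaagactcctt
A match in these letters is a description of the sequence and not a binding site.

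The leukocytes came from 2 of the 4 libraries. Corn oil replicate 2 held 35 among 4323 barcodes, a share of 0.810% (95% exact binomial interval 0.565 to 1.12). 4OHT replicate 1 held 32 among 4809, a share of 0.665% (0.456 to 0.938). None was found among 3546 barcodes of corn oil replicate 1, or among 5545 of 4OHT replicate 2. Taken as 3 counts of the total, a count of 0 allows a share of up to 0.0846% and 0.0541%, and the upper ends of the two-sided exact 95% intervals are 0.104% and 0.0665%. These bounds reflect counting error alone. The presence of these cells thus split each treatment group: 1 library with leukocytes and 1 without on either side. The mean share was 0.405% ± 0.572 (SD, n = 2) with corn oil and 0.333% ± 0.471 (SD, n = 2) with 4OHT. The difference of -0.0721 percentage points was smaller than the spread in either group, with an exact two-sided permutation p of 1. With 2 libraries a group, that test cannot go below 0.333. The direction rested on single libraries: without corn oil replicate 2 the difference was 0.333 points, and without 4OHT replicate 2 it was 0.261 points.

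**Figure D1:**
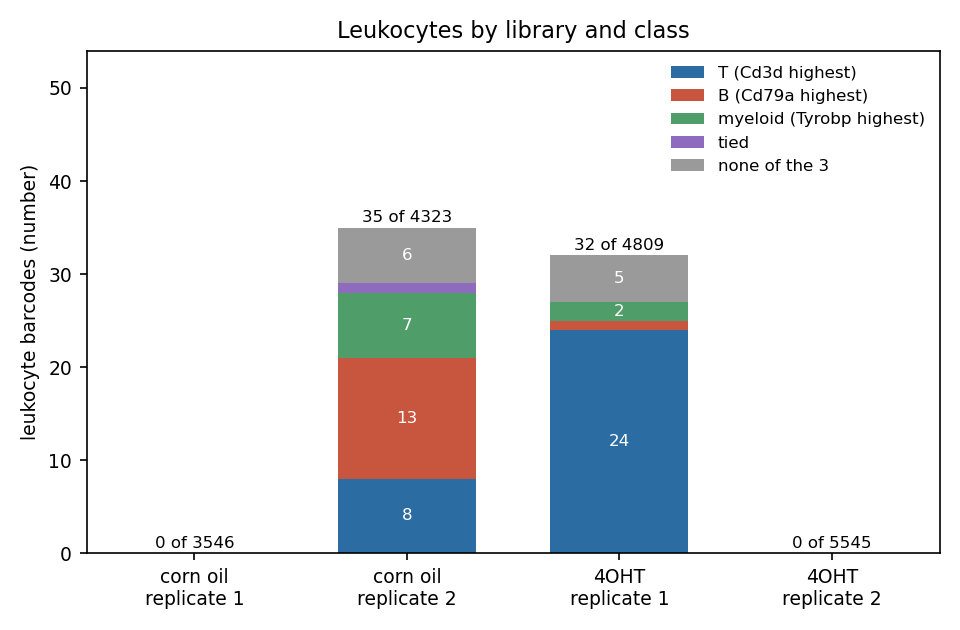
Number of leukocyte barcodes in each library, stacked by class, with the total over all barcodes written above each bar. Corn oil replicate 2 holds 35 and 4OHT replicate 1 holds 32, mostly T class cells in the latter, and the other libraries hold none.

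Other measures bear on the libraries with no leukocyte. UMIs of Cd53, a tetraspanin of leukocytes that was not in the rule, numbered 34 and 31 in the non-leukocyte barcodes of corn oil replicate 2 and 4OHT replicate 1. They numbered 0 in corn oil replicate 1 and 1 in 4OHT replicate 2. Rac2, the GTPase of blood cells, gave 30 and 25 in the former pair and 0 in each of the latter. For these genes, leukocyte RNA outside the chosen cells also came from the same pair of libraries but for 1 UMI. Other genes did not follow that pair as closely. In corn oil replicate 2, 4OHT replicate 1, corn oil replicate 1 and 4OHT replicate 2, in that order, Igkc had 171, 181, 15 and 67 UMIs outside leukocytes. Cd74 had 267, 212, 125 and 139, and Cd79a, a rule gene, had 16, 30, 21 and 10. With 12 further leukocyte genes (Cd53, Cd37, Cd48, Rac2, Arhgdib, Lcp1, Cytip, Fermt3, Ptpn18, Lsp1, Itgb2 and Selplg), 58 of the 67 leukocytes had UMIs of at least 3. Among other barcodes that held for 26 in corn oil replicate 2, 13 in 4OHT replicate 1, 1 in corn oil replicate 1 and 6 in 4OHT replicate 2. After each barcode was thinned to 1000 UMIs, 27, 25, 0 and 0 leukocytes remained, in the same order.

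The chosen cells held little RNA. Their median was 1997 UMIs (lowest 606, highest 9191) and 775 genes, against 3862 UMIs and 1136 genes in other barcodes. The mitochondrial share was alike, at a median of 2.0% and 1.80%. Barcodes between the leukocytes' lower and upper UMI quartiles made up 3.58% of corn oil replicate 1, 14.7% of corn oil replicate 2, 10.2% of 4OHT replicate 1 and 24.5% of 4OHT replicate 2. Shallow barcodes were thus most common in a library without leukocytes and rarest in the other, and the part of depth in the counts of leukocytes was not tested beyond the thinning. There were 311 barcodes whose sequence occurs in more than 1 library (155 distinct sequences), and 2 of them were leukocytes.

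**Figure D2:**
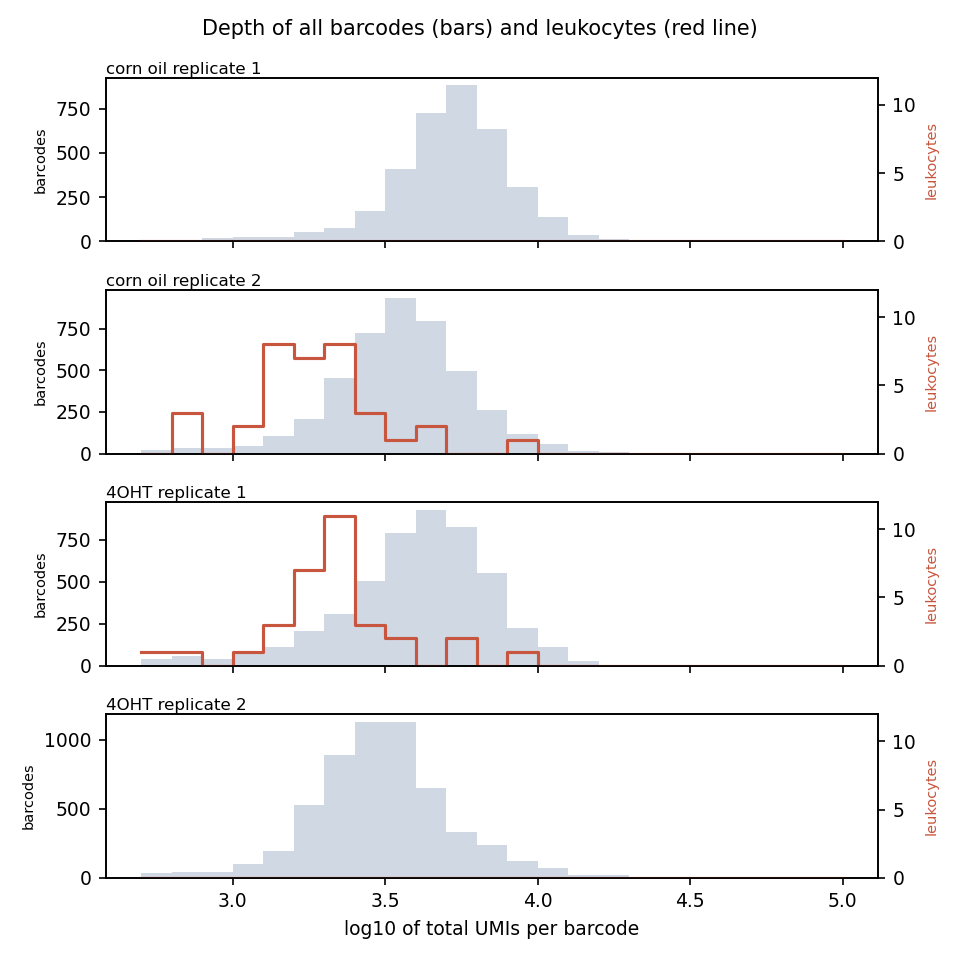
Total UMIs per barcode on a log10 scale, in bins of 0.1, for each library; grey bars count all barcodes (left axes) and the red line counts leukocytes (right axes). The leukocytes, with a median of 1997 UMIs, sit at the shallow side of the main peak in corn oil replicate 2 and 4OHT replicate 1, and the red line stays at 0 in the others.

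The edge of the rule was populated. At exactly 3 UMIs of the 7 genes there were 7 leukocytes and at 4 there were 11, while 17 barcodes had 2 UMIs, 10 of them with fewer epithelial UMIs. A further 6 barcodes reached 3 UMIs but had as many or more of the epithelial genes (7 to 103 UMIs), and these were large, at 5131 to 11422 UMIs in all. Inside the rule, 29 leukocytes had no epithelial UMI and the most was 6. Krt18, the luminal keratin, was at 146 CPM (a gene's share of the summed UMIs, as counts scaled to a common total) in the leukocytes of corn oil replicate 2 and 308 CPM in those of 4OHT replicate 1. In the other barcodes of the same libraries it was at 4060 and 7709 CPM. The levels in leukocytes rest on 11 and 24 UMIs. Krt18 is among the epithelial genes of the rule, which limits its UMIs in the chosen cells. The part of free RNA in these counts was not tested.

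Of the rule genes shared by all leukocytes, Cd52, a surface glycoprotein gene of lymphocytes, had 241 UMIs in 55 of 67 cells. Coro1a, an actin regulator, had 113 in 42, Laptm5 60 in 33 and the phosphatase gene Ptprc (CD45) 38 in 27. The label was borne out by genes the rule did not use. All 15 fixed leukocyte genes outside the rule were detected, and 66 of 67 cells had at least 1 UMI of the 12 named above. Detection alone is not specific, since the 15 genes summed to 4430 CPM in other barcodes, against 18216 CPM in leukocytes. Cd53 had 148 UMIs in 51 cells, or 965 CPM against 0.837 CPM in other barcodes, where 0.193% had a UMI. Rac2 had 98 UMIs in 44 cells, or 639 CPM against 0.697. Cd53 was found in 27 of 32 T class, 8 of 14 B class and 6 of 9 myeloid class cells, so it did not follow 1 lineage. Among genes outside the rule with at least 50 UMIs in at least 20% of leukocytes, the highest ratio to other barcodes was that of Bcl2a1b, a BCL2-family survival gene with near-identical copies, at 352 against 0.101 CPM. It was followed by Trbc1, Cd3g, Cd3e, the lysosomal protease gene Ctss and Ms4a6b. Selplg, the selectin ligand, was at 411 against 0.368 CPM, and Ccr7, the receptor that guides lymphocytes and dendritic cells to lymph nodes, at 404 against 0.380 CPM.

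Genes of most other cell types were low or absent. All 8 pericyte genes were at 0, 7 of 10 endothelial and 7 of 10 fibroblast genes were at 0, and 7 of 8 red cell and platelet genes were at 0. The pericyte list was at only 10.5 CPM in other barcodes, a level at which few UMIs would be seen among the leukocytes. Summed over the list, fibroblast genes were at 39.1 CPM against 260 in other barcodes, and basal epithelial genes at 300 against 8332. Luminal progenitor genes were at 326 against 7341 CPM. The hormone-sensing list was not low, at 1069 against 864 CPM, and 155 of its 164 UMIs were Ly6a, which blood cells also make. The endothelial list was not low either, at 111 against 92.0 CPM, and 15 of its 17 UMIs were Pecam1, which leukocytes also make. The low epithelial levels were set in part by the rule.

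**Figure D3:**
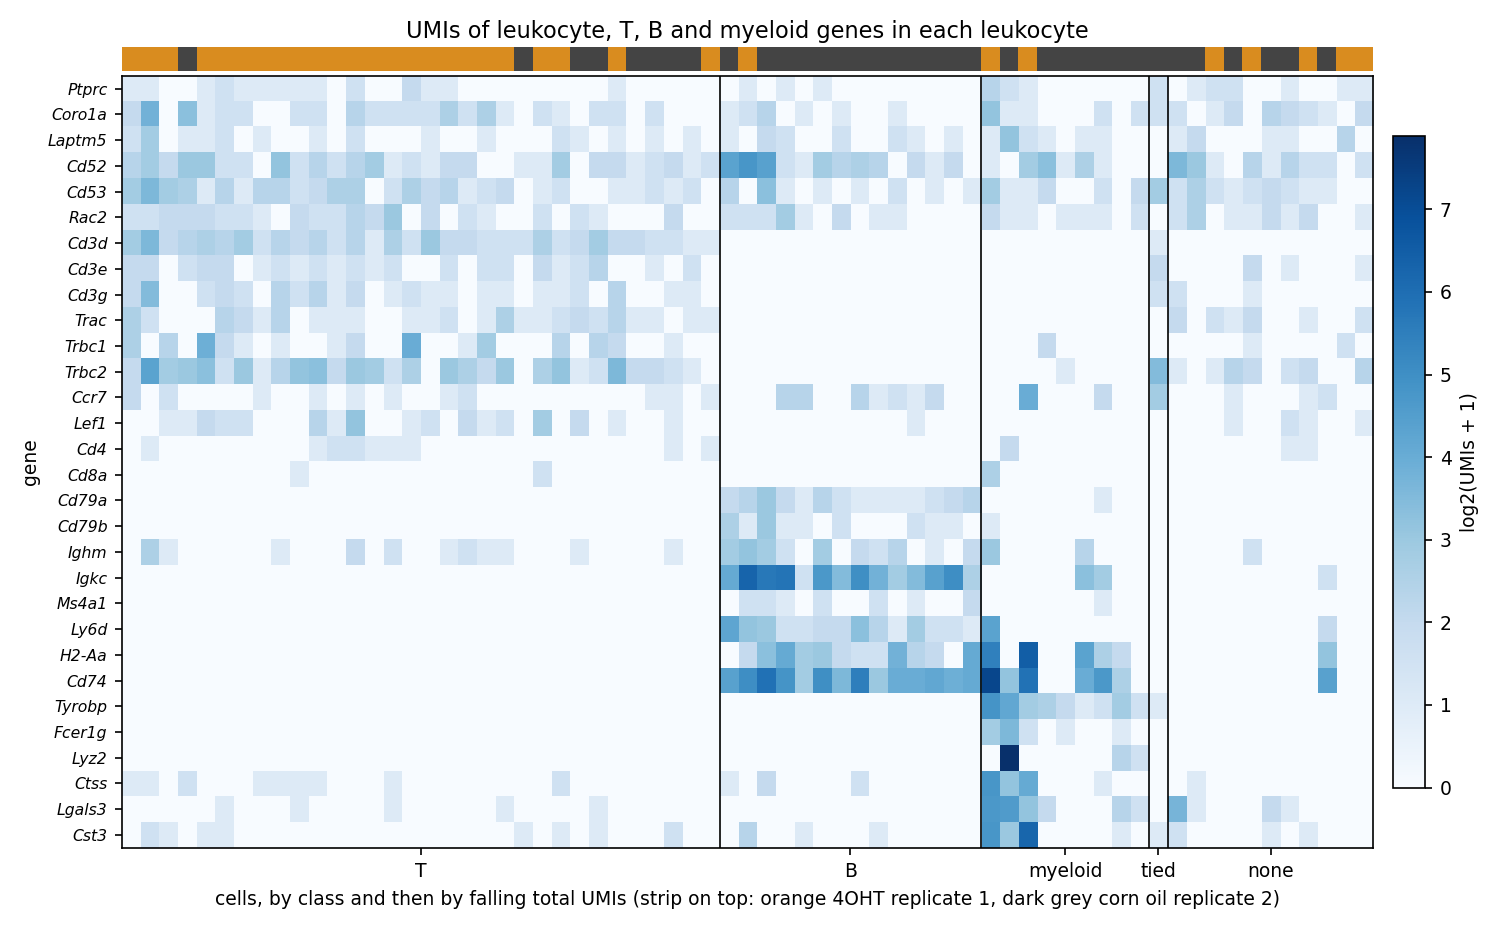
UMIs of 30 genes (rows) in each of the 67 leukocytes (columns) as log2(UMIs + 1); columns are ordered by class and then by falling total UMIs, and the strip on top gives the library. The T cell genes fill the T columns and reappear among the cells with none of the 3 class genes, Igkc and Cd74 fill the B columns, and the myeloid columns differ from each other.

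T class cells were the most numerous, with 32 of the 67. Cd3d, the rule gene, had 1 to 11 UMIs per cell (median 3). All 32 cells had a UMI of at least 1 other receptor-complex gene among Cd3e, Cd3g, Cd247, Trac, Trbc1 and Trbc2. Trbc2, a beta chain constant region, had 156 UMIs in 29 of 32 cells (median 4.5, highest 19), while 2.72% of other barcodes had a UMI. Trac, the alpha chain constant region, had 49 UMIs in 24 cells, Cd3e 45 in 22, Cd3g 51 in 22 and Cd247 25 in 16. Of the 18 T cell genes in the fixed list, 17 were detected in this class, and their sum was 8834 CPM against 32.4 in the B class and 182 in the myeloid class. Trbc1 and Trbc2 share nearly all of their coding sequence, so the counting may have split them: 14 cells had Trbc2 alone, 15 had both, none had Trbc1 alone and 3 had neither. Downstream of the receptor, Lck had 33 UMIs in 21 cells, the adaptor Lat 22 in 15 and Zap70 5 in 5. Hcst, an adaptor of activating receptors on T and NK cells, had 26 UMIs in 17.

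Several genes known from resting or recirculating T cells were detected in this class, some in a minority of its cells. Klf2, a transcription factor that keeps T cells in circulation, had 75 UMIs in 23 of 32 cells, and its target S1pr1, the receptor for lymph node exit, 19 in 14. Lef1 and Tcf7, paired transcription factors of naive T cells, had 42 UMIs in 17 cells and 27 in 17. Ccr7 had 15 UMIs in 11 cells, at 224 CPM against 616 CPM in the B class. Il7r, the survival cytokine receptor, had 25 UMIs in 13 cells, and the costimulatory receptor Cd28 35 in 19. Klf2, Cd28, Lef1 and Tcf7 were each found in more than 16 of the 32 cells.

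Effector and regulatory genes were rare in the T class. Foxp3, Il17a, Tbx21, Klrg1, Trdc and Tcrg-C1 were at 0 in all 67 cells, and Ctla4 had 5 UMIs. Of the 13 cytotoxic and NK genes 4 were detected in T class cells, with 19 UMIs in 6 cells: Ccl5 9, Klrd1 6, Nkg7 3 and Prf1 1. The coreceptors were sparse. Cd4 without Cd8a or Cd8b1 was found in 8 cells, Cd8a or Cd8b1 without Cd4 in 5, both in 1 and neither in 18. All 8 cells with Cd4 alone came from 4OHT replicate 1, where 24 of the 32 T class cells lie. At a median of 2012 UMIs per cell, absence of a coreceptor UMI in 1 cell does not show that the gene was off.

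The B class cells carried immunoglobulin RNA in every cell. Cd79a, the rule gene, had 1 to 7 UMIs. Igkc, the kappa light chain constant region, had 353 UMIs in 14 of 14 cells, from 2 to 78 per cell with a median of 18, against 0 in 32 T class cells. In other barcodes 0.777% had an Igkc UMI. Ighm, the IgM heavy chain, had 41 UMIs in 10 cells and Ighd, the IgD heavy chain, 12 in 7, and 11 of the 14 had at least 1 of the pair. Jchain, Ighg1 and Igha, genes of antibody-secreting or class-switched cells, were at 0. Mzb1, a chaperone gene of B and plasma cells, had 23 UMIs in 9 cells. The other B cell genes were Cd79b (21 UMIs in 9 cells), Ly6d (68 in 14), the transcription factor Ebf1 (19 in 9), the surface antigen gene Ms4a1 (13 in 7), Fcmr (8 in 4) and Tnfrsf13c, the BAFF receptor (14 UMIs). Of 18 B cell genes 15 were detected, and Cd22, Cr2 and Fcer2a were at 0.

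B class cells also had the antigen presentation genes of MHC class II. Cd74, the invariant chain, was in 14 of 14 cells with 6 to 59 UMIs (median 16.5). H2-Aa was in 12 with 84 UMIs and H2-Ab1 in 11 with 38, while H2-Aa, H2-Ab1 and Cd74 were at 0 in all 32 T class cells. Irf8, a transcription factor of B and dendritic cells, had 30 UMIs in 11 cells. Nfkbid, an NF-κB regulator induced by antigen receptors, had 23 UMIs in 9, and Ccr7 19 in 7. The only B class cell of 4OHT replicate 1 had the most Igkc UMIs, 78, along with 16 of Cd83 and 19 of Bcl2a1b.

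**Figure D4:**
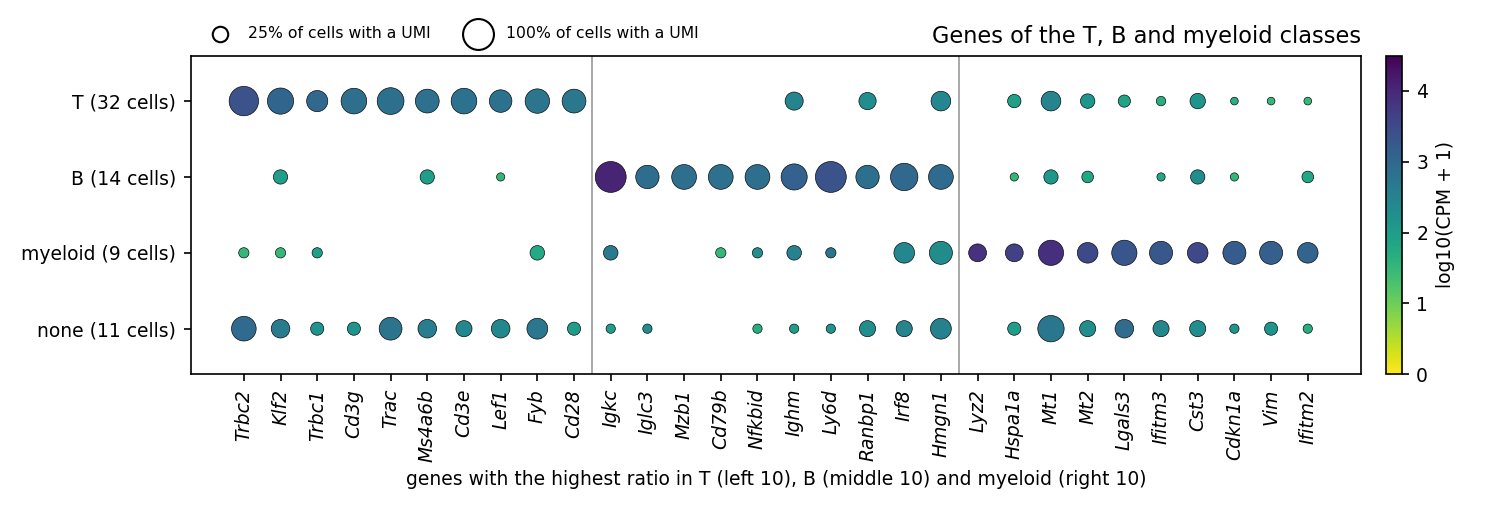
Pooled level (colour, log10 of CPM + 1) and percent of cells with a UMI (dot area) of the 10 genes with the highest ratio in each class, in the T, B and myeloid classes and in the 11 cells with none of the class genes. Trbc2 and Igkc fill 29 of 32 T and 14 of 14 B class cells, whereas Lyz2 was in 3 of 9 myeloid class cells.

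The 9 cells of the myeloid class were not alike, and several went against the name. Tyrobp had 1 to 28 UMIs (median 5). Of 23 macrophage and monocyte genes 13 were detected, but C1qa, C1qb, C1qc, Mrc1, Cd163, Cx3cr1, Aif1, Itgam, Lyve1 and Folr2 were at 0. Fcer1g, the adaptor that pairs with Fc receptors, had 21 UMIs in 5 cells. Levels of the class as a whole rested on single cells: 236 of 242 Lyz2 UMIs, 216 of 248 Mt1 UMIs and 146 of 148 Hspa1a UMIs came from 1 cell each. The cells are therefore given singly, in order of their total UMIs.

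The largest, from 4OHT replicate 1 with 9191 UMIs, had 28 UMIs of Tyrobp, 65 of Ly6c2, 59 of Bst2, 13 of Siglech and 13 of Irf7, the latter pair being genes of plasmacytoid dendritic cells. It also had 11 of Cd209d, 9 of Cd209a, 7 of the dendritic progenitor receptor gene Flt3, 8 of Klrd1 and 147 of Cd74. The next, from corn oil replicate 2 with 8631 UMIs, had 236 of the lysozyme gene Lyz2, 27 of Lyz1, 216 of the metallothionein gene Mt1, 30 of Il22ra2 (a decoy receptor for interleukin-22), 26 of Il1rn (the interleukin-1 antagonist) and 29 of Apoe. These are genes of mononuclear phagocytes, and Cd74 was at 8. The third, from 4OHT replicate 1 with 5084 UMIs, had 88 of H2-Aa, 67 of H2-Ab1, 75 of Cst3, 59 of Ccl5, 15 of Ccr7, 13 of Il1b and 8 of Cd83, without Lyz2. Its genes are those of antigen-presenting cells.

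The fourth, from corn oil replicate 2 with 2887 UMIs, had 10 of the granzyme gene Gzmc, 3 of Trbc1, 2 of Klrk1 and 2 of Xcl1. It had no UMI of MHC class II genes, Cd3d, Cd3e or Cd3g. Beside 5 of Tyrobp it had 1 each of Gzmb, Klrb1c, Il2rb and Ifng, and 1 each of Lck and Tcf7. Its leading genes were lymphocyte genes, and whether it was a T cell or an NK cell is not clear. The fifth, from the same library, had 146 of the heat shock gene Hspa1a and 20 of Dnajb1, beside 3 of Tyrobp. It also had 2 of Il2, 1 of Trbc2 and 1 of Fcer1g, and no MHC class II UMI, so its lineage is not clear. The sixth and the seventh had 9 and 6 of Igkc, 15 and 25 of Cd74, and 1 and 2 of Tyrobp, so B cell genes led over the class gene. The sixth is also 1 of the leukocytes whose barcode occurs in another library. The eighth, with 752 UMIs, had 6 of Tyrobp, 4 of Lyz2, 6 of Apoe and 1 of Csf1r. The ninth, with 635 UMIs, had 97 of the neutrophil gene S100a8 with 1 of its partner S100a9, 8 of Lcn2, 4 of Il1b and 3 of Fpr2, and Csf3r, Ly6g and Cxcr2 were at 0.

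The 11 cells with no UMI of Cd3d, Cd79a or Tyrobp mostly carried T cell genes. Of these, 8 had at least 2 UMIs of Cd3e, Cd3g, Cd247, Trac, Trbc1 and Trbc2 together, and the summed T cell list was at 3898 CPM. Among the 8, the cell of 1155 UMIs from 4OHT replicate 1 had only 2 of Trbc1. It also had 2 each of Klrc1, Klrc2 and Xcl1, 1 of Gzma and 3 of Lck. Ltb, a lymphotoxin subunit of lymphocytes, had 27 UMIs in 9 of the 11. The cell of 4963 UMIs had 3 UMIs of Cxcr6, 4 of Rora, 2 of Icos and 3 of Gzmc, and that of 2344 UMIs had 4 of Cxcr6, 3 of Icos and 16 of the interferon-induced chemokine Cxcl10. The latter cell had no UMI of the receptor-complex genes. Cxcr6, a receptor of tissue-resident lymphocytes, had 8 UMIs in these cells and 1 in the 32 T class cells. A single cell, from corn oil replicate 2, had 20 UMIs of Cd74, 8 of H2-Aa and 4 of Iglc3. The tied cell, also from corn oil replicate 2, had 10 UMIs of Trbc2, 3 of Cd3e and 6 of Ccr7.

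Across classes, several gene groups were shared. MHC class I genes were present in all: H2-D1 had UMIs in 65 of 67 cells and B2m in 66, and pooled levels were 3858 and 3878 CPM against 1303 and 902 in other barcodes. Of 18 interferon response genes 17 were detected; Ifi27l2a alone gave 245 of 510 UMIs, in 39 cells. Bst2 followed with 101 UMIs in 16 cells, 75 of them in the myeloid class. The 12 cell cycle genes summed to 925 CPM against 1005 CPM in other barcodes, with 5 genes detected: Pcna, Mcm5, Stmn1, Hmgb2 and Tubb5. Of the list's 77 UMIs in the T class, Hmgb2 had 31 in 4OHT replicate 1 and 9 in corn oil replicate 2. Tubb5 had 27 and 3, so the sums do not compare cycling. Mki67, Top2a, Cdk1, Ccnb1, Ccnb2, Birc5 and Tyms were at 0 in a pooled 153437 UMIs, a depth at which genes as low as Ccnb1 or Birc5 in other barcodes (0.811 and 2.23 CPM) would seldom be seen. Immediate early and stress genes were lower than in other barcodes, at 4249 against 10455 CPM, and Fos had 8 UMIs in 6 cells. Among ITAM adaptors and kinases that did not set the classes, Cd3e, Cd3g and Cd247 were at 0 in the B and myeloid classes. Cd79b was at 0 in the T class, with 21 UMIs in the B class and 1 in the myeloid class. Syk and Btk were at 0 in the T class but had only 4 and 3 UMIs in all, and Trem2 was at 0 throughout. The factor gene Spi1 had 19 UMIs in the myeloid class, 3 in the B class and 0 in the T class.

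The makeup of the leukocytes differed between the 2 libraries that held them. T class cells were 8 of 35 in corn oil replicate 2, or 22.9% (95% exact binomial interval 10.4 to 40.1), and 24 of 32 in 4OHT replicate 1, or 75% (56.6 to 88.5). B class cells were 13 of 35, or 37.1% (21.5 to 55.1), and 1 of 32, or 3.13% (0.0791 to 16.2). Myeloid class cells were 7 of 35, or 20% (8.44 to 36.9), and 2 of 32, or 6.25% (0.766 to 20.8). The intervals of the T and of the B share did not overlap between the libraries, and those of the myeloid share did. The class genes alone set these shares, and in corn oil replicate 2 the myeloid class includes the fourth, the sixth and the seventh cell described above. When tied or unclassed cells with at least 2 receptor-complex UMIs were counted as T, and those 3 cells as T or B by their receptor genes, T cells were 13 of 35, or 37.1% (21.5 to 55.1), and 29 of 32, or 90.6% (74.98 to 98.02). B cells were then 15 of 35, or 42.9% (26.3 to 60.6), against the same 1 of 32. Myeloid cells were 4 of 35, or 11.4% (3.20 to 26.7), against the same 2 of 32. No unclassed cell was counted as B, not even that of corn oil replicate 2 with 20 UMIs of Cd74 and 4 of Iglc3. This way of counting was chosen after the values were seen. It takes the fourth cell as T on 3 UMIs of Trbc1 and keeps the fifth, with 1 of Trbc2, as myeloid. It also takes an unclassed cell of 4OHT replicate 1 as T on 2 UMIs of Trbc1 alone. The intervals cover counting error within 1 mouse each. With no leukocyte in the other library of either group, no test of treatment was possible for the shares, and mouse, treatment and replicate number cannot be told apart. The summed lists followed the makeup: T cell genes were at 1844 CPM in corn oil replicate 2 and 7111 CPM in 4OHT replicate 1, and B cell genes at 6592 and 1986 CPM.

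Within the T class, the summed counts of 24 cells of 4OHT replicate 1 (54391 UMIs) were set beside those of 8 cells of corn oil replicate 2 (12626 UMIs). This compares 2 libraries, not 2 treatments, and carries no p-value. Median depth was 2170.5 and 1420.5 UMIs per cell. Of 240 genes with at least 30 UMIs over both sums, 21 were at least 2-fold higher in 4OHT replicate 1 (8.75%) and 14 at least 2-fold lower (5.83%), counting a gene of under 3 UMIs in a sum as 3. These counts are of size and include genes whose change was within counting error. The exact 95% counting interval of the ratio excluded 1 for 14 of the former and 13 of the latter. That interval takes UMIs as independent and leaves out the spread between cells. Genes reached 30 UMIs mainly through the larger sum of 4OHT replicate 1, so the filter favoured genes higher there. At 50 UMIs over both sums, the counts were 9 higher and 8 lower of 165 genes. Scaled by the median ratio of genes in place of total UMIs, the counts were 27 and 11, so the higher genes went from 60% to 71.1% of those counted. With at least 5 rule UMIs per cell they were 7 and 18, or 28% higher, so the balance between higher and lower genes depended on these settings. The median ratio of all 240 genes was 0.944.

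Several of the T class differences were also seen between the other barcodes of these libraries. Rpl10-ps3, a ribosomal protein pseudogene, was at 221 CPM in 4OHT replicate 1 T cells and 3722 in those of corn oil replicate 2, 16.9-fold lower (interval 8.81 to 34.9). In the non-leukocyte barcodes it was at 441 and 4098 CPM in the same libraries, and at 641 in corn oil replicate 1 and 4853 in 4OHT replicate 2. Rps27rt, a ribosomal protein retrogene, was 5.96-fold lower in the T cells (4.60 to 7.75) and 5.71-fold lower in other barcodes. Wdr89 was 4.48-fold lower (2.97 to 6.78) and 4.89-fold lower in other barcodes. For these 3 genes both libraries numbered 1 sat together and apart from both libraries numbered 2, whatever the treatment. Ubb, a polyubiquitin gene, ran the other way, with 60 UMIs against 2 in the T cells (ratio interval 1.85 to 58.8). In other barcodes Ubb was at 1010 and 1188 CPM in the libraries numbered 1 and 72.8 and 78.7 CPM in those numbered 2. Pseudogenes and retrogenes share sequence with their parent genes, so the authors' counting may have split their reads. In other barcodes Rpl10 ran opposite to Rpl10-ps3. It was at 5888 and 5941 CPM in the libraries numbered 1 and at 1984 and 1607 CPM in those numbered 2. A split of reads was not tested.

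The same comparison was made for the whole list, and only part of it followed the replicate number. Of the 21 higher genes 15 had at least 30 UMIs in other barcodes, and in 8 of them both libraries numbered 1 lay above both numbered 2, against 18.4% of the 228 genes so measured. Of the 14 lower genes, 8 had both libraries numbered 1 below both numbered 2, against 49.6%, a share near the background. By treatment, both 4OHT libraries lay above both corn oil libraries for 1 of the 15, against 8.77%, and below for 4 of the 14, against 10.5%. The 1 above was Actb, and the 4 below were Ifi27l2a, Ly6e, Vps37b and Chchd2. Of the 14 lower genes 6 were also at least 2-fold lower in other barcodes, and of the 21 higher genes Ubb and the ribosomal protein gene Rpl35 were also at least 2-fold higher there. What the labels' replicate number stands for in the preparation is not given in the sources used here.

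Some of the higher genes were T cell genes. Trbc1 had 61 UMIs against 5 (2.83-fold, interval 1.15 to 9.03) and Cd3g 47 against 4 (2.73-fold, 0.997 to 10.4). In 4OHT replicate 1, single cells held 15 and 14 of the Trbc1 UMIs and 10 of the Cd3g UMIs. The counting intervals do not cover such spread between cells. Cd27, a costimulatory receptor, had 32 against 0, a ratio of 2.48 with 3 counts over the sum as the floor and a lower counting limit of 1.90. In other barcodes Cd27 was at 52.6 and 71.9 CPM in the same libraries. Satb1, a chromatin organiser of T cells, had 38 against 1 (interval 1.49 to 357). Cd3e went the other way in value, at 625 and 871 CPM (1.39-fold lower, interval 0.637 to 2.82), and Trac did not differ beyond counting error, at 735 and 713 CPM. Of the 18 T cell genes 8 reached 30 UMIs: 3 were at least 2-fold higher (Trbc1, Cd3g and Skap1), none lower, with a median ratio of 1.74. Over all 240 genes compared, 8.75% were at least 2-fold higher. Trbc1, Cd3g, Skap1, Cd27 and Satb1 each reached 30 UMIs through 4OHT replicate 1 alone, Skap1 with 30 against 1. The filter thus favoured T cell genes higher in that library, which limits what the 3 higher genes and the median ratio show. The interval of Cd3g included 1. Reads of Trbc1 and Trbc2 may have been split between them, and Trbc2 was at 2519 and 1505 CPM (1.67-fold, 1.03 to 2.87). Ifi27l2a, an interferon-induced gene and the only one of its list with 30 UMIs, was at 882 CPM and 2851 CPM in T cells, 3.23-fold lower in 4OHT replicate 1 (2.04 to 5.08). In other barcodes Ifi27l2a was at 26.8 and 49.0 CPM in those libraries, and at 74.0 CPM in corn oil replicate 1 and 14.9 CPM in 4OHT replicate 2. There, both 4OHT libraries lay below both corn oil libraries.

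**Figure D5:**
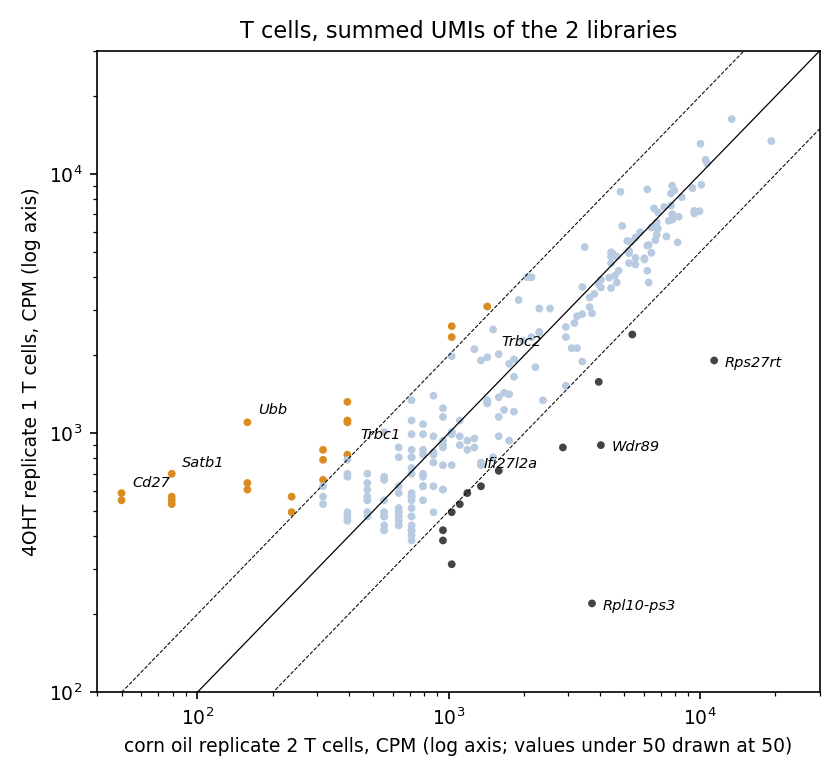
Summed CPM of 240 genes in T class cells of corn oil replicate 2 (8 cells, horizontal log axis) and 4OHT replicate 1 (24 cells, vertical log axis); the solid line marks equality and the dashed lines 2-fold. The 21 genes at least 2-fold higher in 4OHT replicate 1 are orange and the 14 lower are dark, with Rpl10-ps3, Rps27rt and Wdr89 farthest below the line.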

How the data were processed

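Single-cell 3′ libraries of mammary epithelial cell preparations were deposited as raw UMI counts per gene and barcode (31053 genes, 18223 barcodes), a count matrix per library that the authors obtained from Cell Ranger 3.0.1 on mm10, per the file headers and the labels' design text. Cell calling settings, the use of introns and the removal of doublets are not given in the sources used here, and no doublet caller was run on so few cells. Library totals ranged from 17351950 to 22017878 UMIs. All deposited barcodes had at least 500 UMIs, and none was filtered further.

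Counts were summed over cells of a class and divided by the sum to give CPM. Gene lengths were not used, since a 3′ library counts 1 end of each transcript. A gene with under 3 counts in the reference was set to 3 there when ratios were ranked. Named genes were, for leukocytes, the 15 with the highest ratio to other barcodes (at least 50 UMIs, in at least 20% of leukocytes), for a class the 10 with the highest ratio to the next class (at least 20 UMIs, in at least 25% of its cells), and members of fixed lists. The genes of the library comparison, and those given for single cells, were chosen after their values were seen. The members and the lists were chosen with earlier results of these data known.

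The planned edgeR and DESeq2 tests of summed counts could not be fitted: leukocytes occur in 1 library per group, which leaves no residual degrees of freedom. The comparison of T class sums replaced them. Shares carry exact Clopper-Pearson 95% intervals, and leukocyte shares of libraries were tested by exact permutation, two-sided. Whether samples of a group came from separate litters or days is not stated. Python 3.11.15, scipy 1.17.1 and pandas 2.3.3 were used, and the fold rule was tested on simulated data. Positions are from GENCODE M21 and promoter windows from RefSeq (GRCm38.p6).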

Additional observations from a re-analysis of the deposited data

How the results depend on the processing

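The difference in leukocyte share (4OHT minus corn oil) was -0.0721 percentage points and stayed negative at 5 UMIs of the rule genes, without epithelial UMIs, with filters of 1000 UMIs, 500 genes and 10% mitochondrial counts, thinned to 1000 UMIs and without shared barcodes, from -0.160 to -0.0177. With permutation within replicate numbers (the replicate block) it was -0.0721 with an exact p of 1. Leaving out a library gave -0.477 to 0.333 and turned the direction to 0.333 without corn oil replicate 2 and 0.261 without 4OHT replicate 2. The T class share differed by 52.1 points between the libraries that hold leukocytes and by 50.7 to 63.3 under these alternatives. Counting receptor genes of tied, unclassed and myeloid class cells, an alternative added after seeing the data, gave 53.5. The count of T class genes at least 2-fold apart, 35, was 14 without epithelial UMIs and 17 at 50 UMIs per gene, where 102 and 165 genes were compared. It was 25 at 5 rule UMIs, with 7 higher and 18 lower, and 38 with median-ratio scaling; these 4 settings were also chosen after seeing the data. The alternatives to the edgeR fits, and a block or a left-out library for class shares, were not run because 1 library per group holds leukocytes. The replicate numbers correlated at 0.581 over 10757 genes in whole-library deviations, with only 2 pairs. Depth limits single cells: at a median of 1997 UMIs, most genes had no UMI in most cells.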

Other observations

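Heavy chain RNA was found in T class cells without kappa light chain RNA. Ighm had 19 UMIs in 11 of the 32 T class cells, 9 from 4OHT replicate 1 and 2 from corn oil replicate 2, while Igkc, Iglc2 and Iglc3 were at 0 in all 32. Among other barcodes 0.0936% had an Ighm UMI. In the B class, Igkc had 8.61 UMIs for each Ighm UMI. Outside the leukocytes, Ighm had 25 UMIs and Igkc 181 in 4OHT replicate 1, and 31 and 171 in corn oil replicate 2.

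Light chains overlapped in the B class: 12 of the 14 cells had a UMI of Iglc1, Iglc2 or Iglc3 beside Igkc, and none had lambda RNA alone. Iglc2 had 19 UMIs in 9 of them and Iglc3 25 in 8.

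Among MHC class II genes over all leukocytes, H2-Aa had 249 UMIs, H2-Ab1 163 and Cd74 593, but H2-Eb1, the beta chain of the second class II pair, had 4 UMIs in 3 cells. Ciita, the class II transactivator gene, had 1 UMI.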
